A study of Mus musculus with 9 samples.

Results

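The macroH2A1.1 knockdown was compared directly with the macroH2A1.2 knockdown in C2C12 cells, an established mouse myoblast line whose cells fuse into contractile myotubes when serum is withdrawn. The comparison holds 6 of the 9 samples of the series, 3 transfected with siRNA against macroH2A1.1 (si mH2A1.1) and 3 with siRNA against macroH2A1.2 (si mH2A1.2), chosen by their labels. Each knockdown received 10 nM siRNA, given repeatedly up to the second day after the change to low serum, and all cells were collected at day 4 of differentiation. The other 3 samples are labelled wild type (WT), entered no test, and are given only to show where a gene lay without either knockdown. The study lists a control siRNA of scrambled sequence, and whether the WT samples received it or were left untransfected is not given in the sources used here. Both knockdown groups share the line, the day and the dose, and all samples come from 1 immortal line. The study describes the replicates of each group as independent biological ones. Polyadenylated mRNA was sequenced as single reads of 50 bp. The study lists more than 1 siRNA for each isoform, and which was used for these samples is not given in the sources used here. Each knockdown has its own siRNA sequence, so loss of an isoform and effects of the sequence cannot be told apart. The question is which genes and functions part the si mH2A1.1 cells from the si mH2A1.2 cells.

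MacroH2A1 is a histone variant that replaces canonical H2A in part of the nucleosomes and carries a large globular macrodomain outside the nucleosome core. One gene, H2afy, encodes both isoforms. Alternative splicing chooses between mutually exclusive exons, and only the macroH2A1.1 form of the macrodomain can bind ADP-ribose. Muscle cells shift from macroH2A1.2 towards macroH2A1.1 as they differentiate. H2afy lies on the minus strand of chromosome 13 (GRCm38, 56073619 to 56136361). The exclusive exon is exon 6 of 9 in both transcripts and is wholly coding, and it is shown because it is where the isoforms differ. In transcript H2afy-202 (macroH2A1.1) it has 91 bases and spans chr13:56088252-56088342. In transcript H2afy-201 (macroH2A1.2) it has 100 bases and spans chr13:56089758-56089857. Both are given 5′ to 3′ on the coding strand, from GENCODE release 21 for mouse.
macroH2A1.1 exon: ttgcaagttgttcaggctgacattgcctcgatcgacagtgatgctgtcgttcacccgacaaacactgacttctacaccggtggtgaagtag
macroH2A1.2 exon: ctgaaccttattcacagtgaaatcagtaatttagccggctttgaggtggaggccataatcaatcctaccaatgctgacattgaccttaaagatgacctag

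The deposited counts are summed over all transcripts of a gene, so H2afy reports both isoforms together and the depletion of one isoform cannot be read from it. Levels are given in CPM, counts scaled to the size of the library. H2afy had 38.7, 30.1 and 30.5 CPM in si mH2A1.1 replicates 1, 2 and 3 and 46.7, 47.3 and 43.4 CPM in si mH2A1.2. The WT samples had 56.2, 62.5 and 61.0 CPM. Both knockdowns lay below the WT samples, and the si mH2A1.1 samples lay below the si mH2A1.2 samples without overlap (log2 fold change -0.46, SE 0.12, adjusted p = 0.0314, edgeR quasi-likelihood test with Benjamini-Hochberg adjustment). This call held in 1 of 6 fits that left out 1 library, without si mH2A1.1 replicate 1. The paralogue H2afy2, which encodes macroH2A2, had 5.62, 3.84 and 3.94 CPM with si mH2A1.1 against 3.82, 3.87 and 3.18 CPM with si mH2A1.2 (adjusted p = 0.349). Values of a group are given in the order of replicates 1, 2 and 3 throughout, and a log2 fold change is that of si mH2A1.1 relative to si mH2A1.2, so that a positive value means a higher level with si mH2A1.1.

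Totals were 37076356 to 42223108 counts in the 6 knockdown samples, and mitochondrial genes took 4.18% to 5.31% of them. At this depth 3 counts are 0.0711 to 0.0809 CPM in the knockdown samples, and a fold against a group at or under 3 counts in each library is given as a lower bound. Such bounds cover counting error only. Cell type markers were summed as a check of the label. The 10 myotube markers reached 14021 to 15647 CPM with si mH2A1.1, 13659 to 17081 CPM with si mH2A1.2 and 15960 to 22854 CPM in WT, so that muscle transcripts were abundant in every group. The summed level of the 10 fibroblast markers overlapped between the knockdowns (685 to 1104 against 791 to 1021 CPM). Of the 9 fibroblast markers tested, 4 were lower with si mH2A1.1 (Dpt, Lum, Pi16 and Cd248) and 2 higher (Ly6a and Col14a1), at a median log2 fold change of -0.60. The summed levels of the 9 smooth muscle or pericyte markers (447 to 631 against 749 to 1002 CPM), the 10 reserve cell markers (464 to 563 against 642 to 669 CPM) and the 10 osteoblast or chondrocyte markers (77.0 to 79.7 against 83.6 to 115 CPM) were lower with si mH2A1.1 without overlap. Members of these 3 lists went both ways. Of 7 tested smooth muscle or pericyte markers 1 was called higher and 2 lower, at a median log2 fold change of -0.04. Of 8 tested reserve cell markers 3 were called higher and 4 lower. Of the 5 tested osteoblast or chondrocyte markers 4 had a log2 fold change above 0, with Dmp1 called higher and Runx2 called lower. The summed levels of the 9 adipocyte markers (94.6 to 115 against 50.3 to 56.5 CPM), the 10 macrophage markers (12.0 to 17.9 against 9.07 to 10.4 CPM) and the 8 endothelial markers (7.45 to 9.66 against 5.47 to 6.32 CPM) were higher without overlap, and 3, 2 and 2 of these were at the floor in all 9 samples. Only 4, 3 and 5 members of these lists were tested, and in each list 1 was called higher and the rest were not called. The part of these markers in the differences below was not tested. In a bulk sample, fewer cells of a kind and less RNA per cell cannot be told apart.

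Of 18888 genes tested, 3731 (19.8%) passed an adjusted p of 0.05 between the knockdowns. With si mH2A1.1, 2033 genes (10.8%) were higher and 1698 (8.99%) were lower than with si mH2A1.2. The median log2 fold change was 0.97 among the higher genes and -0.84 among the lower ones, and -0.01 over all genes tested. A log2 fold change of at least 1 was reached by 988 higher and 677 lower genes. The groups did not overlap for 2029 of the 2033 higher and 1690 of the 1698 lower genes, and for 40.1% of all genes tested. The first principal component of the 6 samples (61.9% of variance) placed si mH2A1.1 at 72.1, 30.1 and 49.3 and si mH2A1.2 at -41.5, -56.1 and -54.0. The counts of calls depended on single libraries. They were 1104 higher and 869 lower without si mH2A1.1 replicate 1, 942 and 721 without si mH2A1.1 replicate 3, 750 and 644 without si mH2A1.2 replicate 2, and 1244 and 1051 without si mH2A1.2 replicate 3. No gene was called in opposite directions by these fits and the fit of all 6 samples. Of 179 called genes chosen for naming by rule, 114 were called in all 6 fits that left out 1 library, and the number of such fits is given below for a gene described with its values that was called in fewer.

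**Figure D1:**
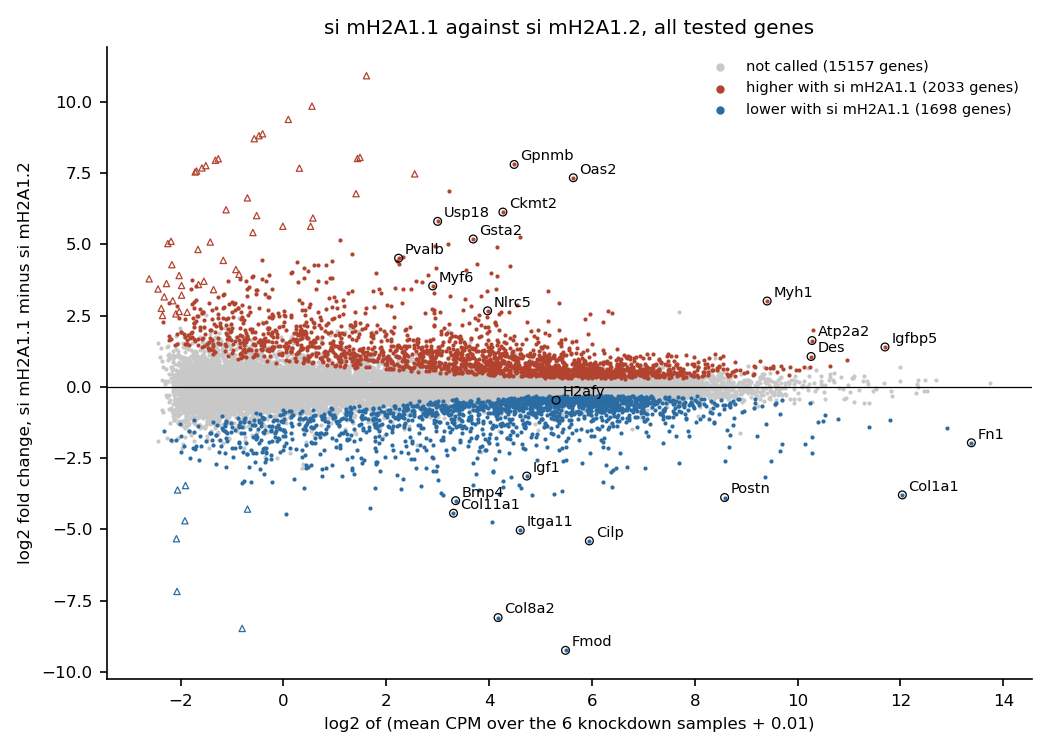
Log2 fold change of si mH2A1.1 relative to si mH2A1.2 (y axis) against the log2 of the mean CPM over the 6 knockdown samples plus 0.01 (x axis) for the 18888 genes tested, with 2033 genes called higher in red, 1698 called lower in blue and the rest in grey. Triangles are genes at or under 3 counts in each library of a group, whose fitted fold change is not a measured size, and labels mark genes named in the text, from Fmod at -9.24 to Gpnmb at 7.81.

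The genes of the largest difference were, on the lower side, mostly proteins of the extracellular matrix. Fibromodulin (Fmod), a small proteoglycan that binds collagen fibrils, had 0.148, 0.223 and 0.0683 CPM with si mH2A1.1 against 161, 72.9 and 34.1 CPM with si mH2A1.2 (log2 fold change -9.24, SE 0.78, adjusted p = 0.000454). Col8a2, a chain of a short network-forming collagen, had 0.0493, 0.198 and 0.137 CPM with si mH2A1.1 against 49.0, 27.3 and 31.6 CPM with si mH2A1.2 (log2 fold change -8.10, adjusted p = 9.66e-05). For both genes the si mH2A1.1 samples lay close to the detection floor while each si mH2A1.2 sample was above 27 CPM, and the WT samples, at 1.74, 5.82 and 2.01 CPM for Fmod and 0.561, 3.31 and 3.89 CPM for Col8a2, lay between. Cilp, a matrix protein of the cartilage intermediate layer, had 2.39, 4.33 and 1.84 CPM with si mH2A1.1 against 136, 116 and 110.1 CPM with si mH2A1.2. The collagen receptor subunit Itga11 had 0.517, 2.00 and 1.77 CPM with si mH2A1.1 against 48.7, 39.4 and 53.6 CPM with si mH2A1.2. The other lower genes of the 8 largest were Adamts17, a secreted metalloprotease (log2 fold change -4.73), the fibril-forming collagen chain Col11a1 (-4.43), the proline transporter Slc6a7 (-4.44) and the leukotriene C4 synthase Ltc4s (-4.26).

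The higher side held genes of muscle, of the interferon response and of neither. Eef1a2, the translation elongation factor form of mature muscle and neurons, had 5.32, 4.97 and 6.44 CPM with si mH2A1.1 and at most 1 count in a si mH2A1.2 library, at least 70.5-fold higher. Arfgef3 had 6.53, 2.80 and 9.01 CPM against 0 counts in all si mH2A1.2 libraries, at least 77.2-fold higher. Lrrc14b had 14.3, 7.10 and 13.6 CPM with si mH2A1.1 against 0.0275, 0.0785 and 0.0809 CPM with si mH2A1.2, at least 147-fold higher. These 3 genes were close to the floor in WT too, with at most 0.107 CPM. Gpnmb, a transmembrane glycoprotein, had 71.8, 16.9 and 45.3 CPM with si mH2A1.1 against 0.192, 0.262 and 0.135 CPM with si mH2A1.2 (log2 fold change 7.81, SE 0.65, adjusted p = 0.000454), and the mast cell tryptase Tpsab1 and the predicted gene Gm3776 had 0 counts in every si mH2A1.2 library and at least 26.7-fold and 36.9-fold more with si mH2A1.1. The remaining 2 of the 8, Mmp3 and Oas1g, are described with their families.

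In absolute level, 5 of the 6 largest differences were lower matrix genes and the sixth was Igfbp5. Fibronectin (Fn1) had 2640.3, 5969 and 4415 CPM with si mH2A1.1 against 18980.0, 17504 and 14383 CPM with si mH2A1.2 (log2 fold change -1.96, SE 0.31, adjusted p = 0.00486). Col3a1 had 3178, 5271 and 3839.5 CPM with si mH2A1.1 against 13247, 10819 and 9659 CPM with si mH2A1.2, and Col1a1 had 268, 845 and 580.4 CPM with si mH2A1.1 against 9365, 7691 and 6459.6 CPM with si mH2A1.2 (log2 fold change -1.45 and -3.79). The means of Fn1 were 4341 ± 1666 and 16956 ± 2347 CPM (SD, n = 3), the widest gap among the called genes. Sparc and Col1a2 were lower by less than the other 3 (log2 fold change -1.16 and -1.41). Igfbp5, the main IGF-binding protein that differentiating myoblasts secrete, was higher instead, with 4476, 6314 and 3675 CPM with si mH2A1.1 against 2431, 1648 and 1403 CPM with si mH2A1.2 (log2 fold change 1.40, SE 0.27, adjusted p = 0.0112, not called without si mH2A1.2 replicate 2).

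The level of the WT samples was set beside these differences without a test. For 1634 of the 2033 higher genes (80.4%) and 1437 of the 1698 lower genes (84.6%) the WT mean on the log2 scale lay between the knockdown means, against 46.6% of all genes tested. Called genes were chosen by the gap between these means, and a wide gap by itself makes a position between them more frequent. The shares of called genes and of all genes are therefore not directly comparable. The WT mean was beyond the si mH2A1.2 mean for 320 higher and 174 lower genes, and beyond the si mH2A1.1 mean for 79 and 87. On a scale from 0 at the si mH2A1.2 mean to 1 at the si mH2A1.1 mean, the median WT position was 0.33 for the higher and 0.40 for the lower genes. WT was nearer to si mH2A1.2 for 71.6% of the higher and 61.4% of the lower genes, against 60.8% of all genes tested. In the matrix lists described below, WT lay between the knockdowns for all 9 lower fibrillar collagens, all 10 lower network collagens and all 21 lower adhesive glycoproteins. Among interferon-stimulated genes it lay beyond si mH2A1.2 for 32 of 56.

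**Figure D2:**
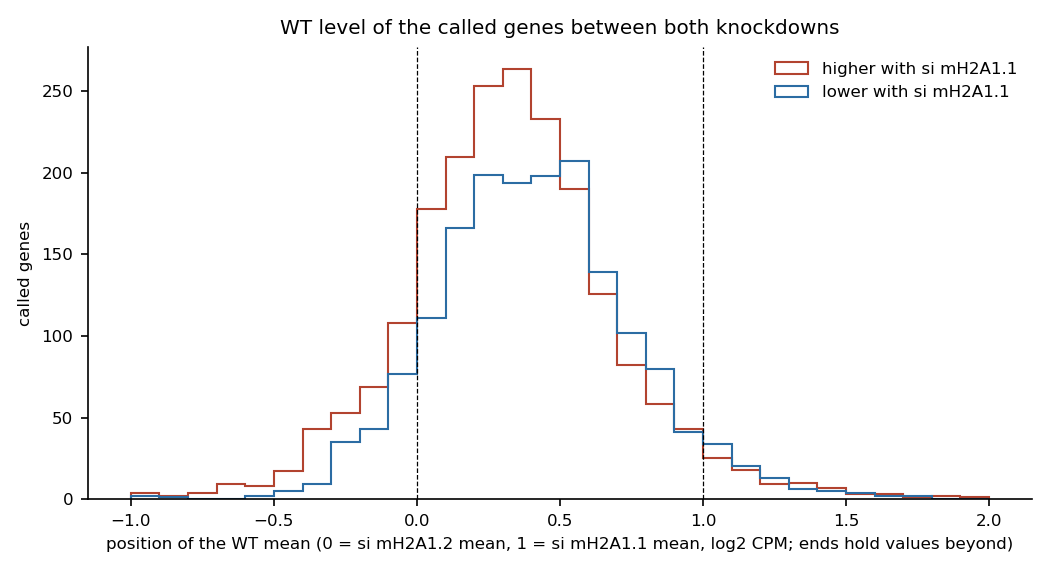
Number of called genes (y axis) by the position of the WT mean on the log2 CPM scale between the si mH2A1.2 mean (0) and the si mH2A1.1 mean (1), for genes higher (red) and lower (blue) with si mH2A1.1. The medians are 0.33 and 0.40, and most genes lie between the dashed lines.

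Genes were next described by 32 lists of known function. The counts of higher and lower members given below are to be read against 10.8% and 8.99% of all genes. The plot of the lists shows where the tested members lay. Matrix, TGF-beta, Wnt and IGF lists lay mostly below 0, and interferon effector, antioxidant, thin filament, DNA replication and mitosis lists mostly above it. Against the 19.8% of all genes called, cholesterol synthesis had 1 higher and 1 lower of 26 genes, and ER folding and ATF4 stress had 1 higher and 4 lower of 31. In the ER list the count of lower genes was 11 without si mH2A1.1 replicate 2 and at most 1 without any other library. Where edgeR called no member of a list in a direction, at most 1 member of that list passed an unadjusted p of 0.05 in it and DESeq2 called at most 1.

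**Figure D3:**
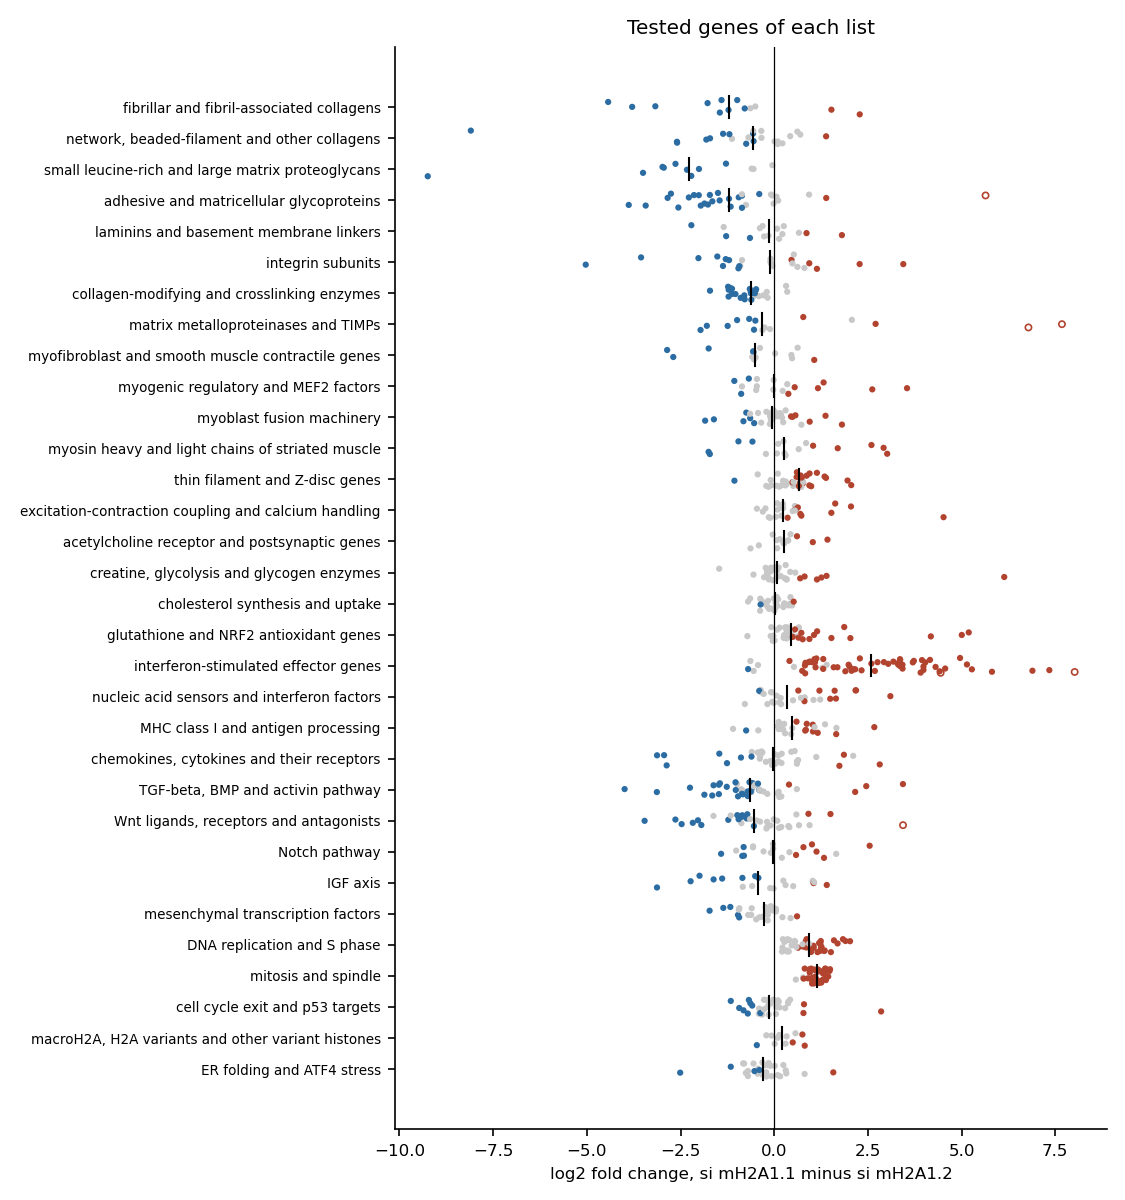
Log2 fold change of si mH2A1.1 relative to si mH2A1.2 (x axis) for the tested genes of the 32 lists (y axis). Red points were called higher, blue points lower and grey points not, hollow points have a group at or under 3 counts in each library, and the black bar is the median of a list, which runs from -2.27 for the matrix proteoglycans to 2.59 for the interferon-stimulated effector genes.

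Fibril-forming collagens and the small leucine-rich proteoglycans that coat their fibrils were lower together with si mH2A1.1. Of 13 tested fibrillar and fibril-associated collagens, 9 were lower and 2 higher (median log2 fold change -1.22, against -0.01 over all genes). Of 12 tested matrix proteoglycans, 9 were lower and none higher (median -2.27). Col12a1, which decorates collagen I fibrils, had 69.1, 159 and 164 CPM with si mH2A1.1 against 1314, 1106 and 1133 CPM with si mH2A1.2 (log2 fold change -3.17, SE 0.32, adjusted p = 0.00097), and Col11a1, which nucleates fibrils, had 0.443, 1.09 and 1.07 CPM with si mH2A1.1 against 20.4, 14.4 and 21.97 CPM with si mH2A1.2. Asporin (Aspn) had 8.67, 19.4 and 12.6 CPM with si mH2A1.1 against 133, 184 and 145 CPM with si mH2A1.2, Prelp had 9.90, 34.0 and 11.4 CPM with si mH2A1.1 against 181, 137 and 119.5 CPM with si mH2A1.2, and osteomodulin (Omd) had 0.493, 1.26 and 0.774 CPM with si mH2A1.1 against 6.73, 6.72 and 6.15 CPM with si mH2A1.2. In each of these genes the si mH2A1.1 samples were all below the si mH2A1.2 samples. Biglycan, lumican, podocan and versican were also lower (log2 fold change -2.33, -2.21, -2.63 and -2.01), while decorin (Dcn) had a log2 fold change of -0.60 and did not pass (adjusted p = 0.113). The 2 collagens that went the other way were Col14a1 with 30.9, 30.6 and 24.5 CPM with si mH2A1.1 against 10.4, 4.76 and 2.51 CPM with si mH2A1.2 (not called without si mH2A1.2 replicate 2) and Col27a1 with 35.2, 27.3 and 26.4 CPM with si mH2A1.1 against 13.6, 9.31 and 7.98 CPM with si mH2A1.2. All 9 lower collagens and both higher ones had a WT mean between the knockdowns.

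Among network, beaded-filament and other collagens, 10 of 23 tested were lower and 1 higher, the latter Col9a3 (log2 fold change 1.38, not called without si mH2A1.1 replicate 3 or without si mH2A1.2 replicate 2). The collagen VI chains, which form beaded filaments around muscle cells, were lower as a set. Col6a1 had 125, 288 and 194 CPM with si mH2A1.1 against 1323, 1236 and 1107 CPM with si mH2A1.2, Col6a2 had 76.3, 156 and 93.2 CPM with si mH2A1.1 against 857, 613 and 502 CPM with si mH2A1.2, and Col6a3 had a log2 fold change of -1.20. Of the basement membrane collagen IV chains, Col4a1 was at -0.57 and Col4a2 at -0.55, and Col4a6 was lower by more at a low level (-1.81, called in 3 of 6 fits without 1 library). The count of lower genes in this list was 6 without si mH2A1.1 replicate 1, 4 without si mH2A1.1 replicate 3 and 5 without si mH2A1.2 replicate 2.

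Adhesive and matricellular glycoproteins, which link cells to collagen and to each other, were lower for 21 of 31 tested genes and higher for 2 (median log2 fold change -1.21). Periostin (Postn) had 19.8, 65.7 and 59.6 CPM with si mH2A1.1 against 712, 761 and 678 CPM with si mH2A1.2 (log2 fold change -3.88, SE 0.41, adjusted p = 0.0011). Fibulin 5 (Fbln5), an organiser of elastic fibres, had 1.55, 7.30 and 3.37 CPM with si mH2A1.1 against 42.3, 41.1 and 48.7 CPM with si mH2A1.2. Ccn2, a matricellular protein induced by TGF-beta and mechanical load, had 26.3, 22.3 and 47.3 CPM with si mH2A1.1 against 207, 219.6 and 267 CPM with si mH2A1.2. Its WT samples, at 26.7, 94.2 and 114 CPM, reached from the si mH2A1.1 level upward. Thrombospondin 1 (Thbs1, -2.01), fibrillin 1 (Fbn1, -1.77), the latent TGF-beta binding proteins Ltbp1 (-1.21) and Ltbp2 (-2.56) and the microfibril proteins Mfap2, Mfap4 and Mfap5 (-2.28, -2.76 and -2.14) were lower as well. The 2 exceptions were tenascin XB (Tnxb), with 3.72, 1.51 and 3.21 CPM with si mH2A1.1 against 0, 0.0785 and 0.0809 CPM with si mH2A1.2 and at least 35.5-fold higher, and elastin (Eln), with 1.31, 1.04 and 1.46 CPM with si mH2A1.1 against 0.660, 0.419 and 0.377 CPM with si mH2A1.2 (called in 2 of 6 fits without 1 library).

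Enzymes that hydroxylate, trim and crosslink collagen were lower too. Of 25 tested, 18 were lower and none higher, at a median log2 fold change of -0.63. The crosslinking lysyl oxidase Lox had 139.5, 344 and 345 CPM with si mH2A1.1 against 793, 789 and 1155 CPM with si mH2A1.2 (log2 fold change -1.71, SE 0.34, adjusted p = 0.0118), and Loxl1, Loxl3 and Loxl4 were lower too (-1.12, -1.17 and -1.21, Loxl4 not called without si mH2A1.2 replicate 2). The lysyl hydroxylase Plod2 (-1.03) and the prolyl hydroxylase subunits P4ha1, P4ha2 and P4ha3 (-0.79, -0.89 and -1.22) belong to the same group. The collagen chaperone Serpinh1 had a log2 fold change of -0.54 and did not pass (adjusted p = 0.0907). The count was 11 without si mH2A1.1 replicate 1, 8 without si mH2A1.1 replicate 3 and 9 without si mH2A1.2 replicate 2.

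Integrins, the receptors for these proteins, went both ways. Of 24 tested subunits, 9 were lower and 5 higher (37.5% and 20.8%, against 8.99% and 10.8% of all genes). The collagen-binding subunits Itga10 and Itga11 showed the lowest values, with 3.18, 4.75 and 3.55 CPM with si mH2A1.1 against 34.2, 64.1 and 37.0 CPM with si mH2A1.2 for Itga10 (log2 fold change -3.55) and -5.03 on the log2 scale for Itga11. Itgav, Itgb3 and Itgb5, subunits of receptors for RGD motifs in fibronectin and vitronectin, were lower (-0.93, -1.37 and -1.29), whereas the fibronectin receptor subunit Itga5 was at -0.10 and the common beta subunit Itgb1 at -0.05, and neither passed (adjusted p = 0.678 and 0.837). The laminin receptor subunits Itga3 and Itgb4 (-1.21 and -2.02) and Itga8 and Itga2b (-1.52 and -0.96) were lower as well. Itga7, the main laminin receptor subunit of muscle fibres, was higher, with 2830.4, 2724 and 2331 CPM with si mH2A1.1 against 1923, 1215 and 992 CPM with si mH2A1.2 (called in 1 of 6 fits without 1 library). Also higher were Itga6 (0.46, called in 1 of 6 fits without 1 library), Itga4 with 50.8, 46.1 and 35.0 CPM with si mH2A1.1 against 12.6, 10.1 and 4.50 CPM with si mH2A1.2, and the leukocyte-type subunits Itgb7 and Itgb2 at lower levels (log2 fold change 3.44 and 1.14, Itgb2 not called without si mH2A1.1 replicate 3 or without si mH2A1.2 replicate 3). The count of higher subunits was 2 or 3 in 5 of the 6 fits without 1 library and 6 in the other, without si mH2A1.2 replicate 1. Among laminins and their linkers, Nid2 (-1.28), Lama1 (-2.21, called in 1 of 6 fits without 1 library) and Lamb2 (-0.65, called in 2 of 6 fits without 1 library) were lower and Lama3 (1.81, called in 2 of 6 fits without 1 library) was higher. Of the 15 genes of this list 3 were lower and 2 higher (20% and 13.3%, against 8.99% and 10.8% of all genes). These counts were 1 and 1 without si mH2A1.1 replicate 1 or 3 or without si mH2A1.2 replicate 1 or 2.

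Matrix-degrading enzymes went both ways. Of 15 tested metalloproteinases and inhibitors, 7 were lower and 4 higher. The constitutive gelatinase Mmp2 had 45.9, 90.6 and 67.1 CPM with si mH2A1.1 against 264, 264 and 271 CPM with si mH2A1.2 (log2 fold change -1.97, SE 0.22, adjusted p = 0.00135), and the membrane-type enzymes Mmp14 and Mmp16 and the inhibitors Timp1 and Timp3 were lower too (-0.54, -1.80, -0.50 and -1.24). Stromelysins and collagenase 3, which are typically off until induced, were higher. Mmp3 had 2.07, 0.693 and 4.60 CPM with si mH2A1.1 against 0, 0 and 0.0270 CPM with si mH2A1.2, at least 31.0-fold higher, and Mmp10 had 9.46, 1.14 and 5.19 CPM with si mH2A1.1 against 0.0550, 0.0262 and 0.0539 CPM with si mH2A1.2, at least 66.5-fold higher. Mmp13 had 0.936, 0.421 and 1.30 CPM with si mH2A1.1 against 0.0550, 0.0785 and 0.270 CPM with si mH2A1.2 (log2 fold change 2.70, SE 0.62, adjusted p = 0.0203, called in 2 of 6 fits without 1 library). In each of these 3 genes si mH2A1.1 replicate 2 was the lowest of its group and still above every si mH2A1.2 and WT sample. The fourth, the membrane-type enzyme Mmp15, had 143, 113 and 109 CPM with si mH2A1.1 against 70.2, 63.0 and 81.1 CPM with si mH2A1.2. The count of lower genes was 4 without si mH2A1.1 replicate 1, 2 without si mH2A1.1 replicate 3 and 3 without si mH2A1.2 replicate 2.

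The promoters of Mmp3, Mmp10 and Mmp13 are shown because they share a short sequence. In RefSeq (build GRCm38.p6, 250 bases before to 50 after each start), the AP-1 site TGANTCA, searched on both strands, occurred in all 3 and not in the promoter of Mmp15, and in 7.81% of all 32851 promoters. The capitals mark the match. The motifs here were chosen after the values were seen, and a match is a description of the letters and not of a bound site.
Mmp3, chr9:7445765-7445794, plus strand: ggaagcaattaTGAGTCAgttttcgggtga
Mmp10, chr9:7502268-7502297, plus strand: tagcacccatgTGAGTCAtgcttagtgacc
Mmp13, chr9:7272468-7272497, plus strand: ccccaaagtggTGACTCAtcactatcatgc

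Growth factor pathways that can drive matrix synthesis were lower in part. In the TGF-beta, BMP and activin pathway, with si mH2A1.1 4 of 42 tested genes were higher and 23 lower (median log2 fold change -0.64). Among ligands, Bmp4 had 0.591, 1.56 and 1.43 CPM with si mH2A1.1 against 17.7, 23.02 and 16.8 CPM with si mH2A1.2 (log2 fold change -3.99, SE 0.33, adjusted p = 0.000421), and Tgfb1, Tgfb3 and the activin subunits Inhba and Inhbb were lower (-0.97, -0.71, -1.03 and -1.62). Lrrc32, which tethers latent TGF-beta on the cell surface, had 0.320, 0.544 and 0.478 CPM with si mH2A1.1 against 3.74, 3.69 and 4.48 CPM with si mH2A1.2, while its WT samples had 0.267, 0.534 and 0.567 CPM, close to si mH2A1.1. Of the receptors, Tgfbr2 and Tgfbr3 were lower (-0.61 and -1.65) and Tgfbr1 was higher (0.39, called in 2 of 6 fits without 1 library). The direct targets Smad7 and Skil were lower (-1.48 and -1.27), and so was the secreted follistatin-like protein Fstl1, with 194, 378 and 266 CPM with si mH2A1.1 against 1571, 1294 and 1127 CPM with si mH2A1.2. Myostatin (Mstn), the activin-class ligand that restrains muscle growth, was instead higher at a low level, with 0.443, 0.643 and 0.455 CPM with si mH2A1.1 against 0.0275, 0 and 0.108 CPM with si mH2A1.2 (log2 fold change 3.43, SE 0.66, adjusted p = 0.011). Gdf5 and the BMP antagonist noggin (Nog) were higher as well (2.16, not called without si mH2A1.2 replicate 2, and 2.46). The count of lower genes was 15 without si mH2A1.1 replicate 1, 15 without si mH2A1.1 replicate 3 and 12 without si mH2A1.2 replicate 2, where 2 higher genes were left.

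In the Wnt pathway 14 of 37 tested genes were lower and 3 higher (37.8% and 8.11%, against 8.99% and 10.8% of all genes). The ligand Wnt10a had 9.48, 10.4 and 8.44 CPM with si mH2A1.1 against 36.5, 49.5 and 42.0 CPM with si mH2A1.2 (log2 fold change -2.17, SE 0.15, adjusted p = 0.000233), and the targets Lef1, Axin2 and Nkd2 were lower (-2.03, -0.95 and -2.64). Trabd2b, a protease that inactivates Wnt proteins, had 1.65, 2.62 and 2.12 CPM with si mH2A1.1 against 38.6, 18.5 and 13.3 CPM with si mH2A1.2, and its WT samples at 2.35, 2.51 and 2.24 CPM matched the si mH2A1.1 level. Wnt4 (0.91, not called without si mH2A1.2 replicate 2 or without si mH2A1.2 replicate 3) and the receptor Fzd3 (1.50) were higher, as was the antagonist Frzb near the floor, at least 4.07-fold (not called without si mH2A1.2 replicate 2). Without si mH2A1.1 replicate 3 or without si mH2A1.2 replicate 2, 9 lower genes were left, and without the latter 1 higher gene.

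In the IGF axis 8 of 19 tested genes were lower and 2 higher (42.1% and 10.5%, against 8.99% and 10.8% of all genes). Igf1, the growth factor that promotes muscle growth and differentiation, had 3.23, 6.21 and 6.83 CPM with si mH2A1.1 against 42.8, 44.4 and 56.1 CPM with si mH2A1.2 (log2 fold change -3.13, SE 0.27, adjusted p = 0.000492). Igfbp7 had 44.8, 43.0 and 50.7 CPM with si mH2A1.1 against 129, 136 and 162 CPM with si mH2A1.2, and Igfbp4 had 7.54, 13.7 and 8.81 CPM with si mH2A1.1 against 36.8, 35.4 and 47.9 CPM with si mH2A1.2. Pappa, which cleaves Igfbp4 and Igfbp5, was lower (-2.23). Igfbp5, above, and Igf2bp1 (1.05, called in 0 of 6 fits without 1 library) were the higher ones, and Igf2 had a log2 fold change of 1.03 that did not pass (adjusted p = 0.079). The count of lower genes was 5 without si mH2A1.1 replicate 1 or without si mH2A1.2 replicate 2.

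Notch genes went both ways, with 6 of 20 higher and 4 lower (30% and 20%, against 10.8% and 8.99% of all genes). The receptor Notch1 (1.13, not called without si mH2A1.2 replicate 2) and the target Hey1 were higher, Hey1 with 43.5, 28.3 and 22.4 CPM with si mH2A1.1 against 6.62, 4.60 and 4.91 CPM with si mH2A1.2 (log2 fold change 2.55, SE 0.26, adjusted p = 0.00104). The ligand Jag1 was lower, with 17.5, 19.8 and 17.7 CPM with si mH2A1.1 against 53.6, 51.2 and 42.6 CPM with si mH2A1.2. The count of higher Notch genes was 3 without si mH2A1.1 replicate 1, 1 without si mH2A1.2 replicate 2 and 2 without si mH2A1.2 replicate 3. That of lower ones was 2 without si mH2A1.1 replicate 1 or 3 and 1 without si mH2A1.2 replicate 2, and without si mH2A1.1 replicate 2 there were 4 higher and 5 lower.

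Smooth muscle and myofibroblast genes were lower in part. Of 14 tested, 5 were lower and 1 higher. Transgelin (Tagln), an actin-binding protein of smooth muscle, had 18.7, 14.6 and 30.4 CPM with si mH2A1.1 against 143, 120.4 and 201.8 CPM with si mH2A1.2 (log2 fold change -2.86, SE 0.30, adjusted p = 0.00108), calponin (Cnn1) had 0.665, 0.767 and 1.34 CPM with si mH2A1.1 against 4.15, 5.34 and 8.71 CPM with si mH2A1.2, and the enteric actin Actg2 had 14.2, 11.6 and 12.9 CPM with si mH2A1.1 against 33.1, 39.2 and 58.2 CPM with si mH2A1.2. Smooth muscle actin Acta2 had a log2 fold change of -0.54 and was not called (adjusted p = 0.0502). The higher gene was Des, with 1892, 1623 and 1468 CPM with si mH2A1.1 against 878, 776 and 731 CPM with si mH2A1.2; its product desmin is the intermediate filament of striated muscle. Without si mH2A1.1 replicate 1 there were 3 lower genes, DESeq2 called 8 lower and 3 higher, and 3 were higher without si mH2A1.2 replicate 3. The CArG box, the motif of the serum response factor, was searched as CC, 6 letters A or T, and GG. Of the 5 lower genes, only 3 had a RefSeq promoter in the set searched. The motif occurred in none of their 4 promoters and in 1.63% of all promoters, too rarely for a match among 4 to be likely. This says only that these letters are not in those windows. Of 26 mesenchymal transcription factors 5 were lower and 1 higher (19.2% and 3.85%, against 8.99% and 10.8% of all genes). The lower ones were Snai1, Prrx2, Runx2, Osr1 and Tcf4 (-1.36, -0.97, -1.17, -1.72 and -0.94, Osr1 called in 3 of 6 fits without 1 library). Srf was the higher one (0.61, not called without si mH2A1.1 replicate 3 or without si mH2A1.2 replicate 2). Without si mH2A1.2 replicate 1, 8 of these factors were lower.

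Muscle regulators and myosin chains went both ways. Of the regulators, Myf6 (MRF4), the myogenic factor of late differentiation and adult fibres, had 12.3, 15.1 and 13.9 CPM with si mH2A1.1 against 1.26, 1.18 and 1.11 CPM with si mH2A1.2 and WT samples at 4.25, 3.47 and 3.35 CPM (log2 fold change 3.54, SE 0.17, adjusted p = 9.66e-05). Myf5 had 56.1, 64.6 and 53.4 CPM with si mH2A1.1 against 29.0, 30.2 and 18.5 CPM with si mH2A1.2, and Pax7, the marker of satellite cells, had 5.32, 4.50 and 4.19 CPM with si mH2A1.1 against 2.61, 1.75 and 1.27 CPM with si mH2A1.2 (log2 fold change 1.32, not called without si mH2A1.2 replicate 2). Myod1 and Myog had log2 fold changes of 0.35 and -0.46 and did not pass (adjusted p = 0.122 and 0.063). Musculin (Msc), a repressor of myogenic factors, had 20.8, 7.25 and 14.5 CPM with si mH2A1.1 against 3.27, 2.43 and 1.24 CPM with si mH2A1.2. The inhibitors Id1 (-0.68, called in 1 of 6 fits without 1 library) and Id3 (-1.07, not called without si mH2A1.1 replicate 3 or without si mH2A1.2 replicate 2), which are BMP targets, were lower. In all, 6 of 17 tested regulators were higher and 3 lower, and 1 was lower without si mH2A1.1 replicate 3 or without si mH2A1.2 replicate 2.

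Of 17 tested myosin chains and myosin-binding proteins, 5 were higher and 4 lower, and 2 were lower without si mH2A1.2 replicate 2 or 3. Among the higher ones were the binding protein Mybpc1 and the heavy chain Myh14. Among the lower ones was the binding protein Mybph (called in 2 of 6 fits without 1 library). The fast adult heavy chains, which lie in 1 gene cluster, were higher with si mH2A1.1. Myh1 had 974, 1216 and 1433 CPM with si mH2A1.1 against 187, 100.2 and 163 CPM with si mH2A1.2 (log2 fold change 3.01, SE 0.26, adjusted p = 0.000494), Myh4 had 139.7, 140.1 and 154 CPM with si mH2A1.1 against 31.9, 13.3 and 26.9 CPM with si mH2A1.2, and Myh2 had 33.4, 38.6 and 48.7 CPM with si mH2A1.1 against 16.7, 8.58 and 12.2 CPM with si mH2A1.2. The slow and cardiac heavy chains were lower, Myh7 with 20.2, 75.1 and 95.2 CPM with si mH2A1.1 against 213, 183 and 235 CPM with si mH2A1.2 (log2 fold change -1.72, SE 0.46, adjusted p = 0.0343, called in 3 of 6 fits without 1 library) and Myh6 with 5.44, 16.01 and 19.7 CPM with si mH2A1.1 against 48.4, 39.6 and 51.5 CPM with si mH2A1.2. Myl4, the embryonic and atrial light chain, was lower too (391, 652 and 609 CPM with si mH2A1.1 against 1003, 972 and 1244 CPM with si mH2A1.2). In Myh6, Myh7 and Myl4 si mH2A1.1 replicate 1 was the lowest sample. The embryonic chain Myh3 and the neonatal chain Myh8 had log2 fold changes of -0.22 and 0.07 and did not pass (adjusted p = 0.363 and 0.874). Per kilobase of exon, mean levels with si mH2A1.1 were 768 CPM for Myh3, 190.1 for Myh1, 24.01 for Myh4 and 7.37 for Myh7, and with si mH2A1.2 they were 899, 23.6, 3.99 and 24.4. Myh3 was the highest of these 4 in both groups, and Myh1 was above Myh7 with si mH2A1.1 and close to it with si mH2A1.2. These chains are similar in sequence, and reads of 50 bp that match several of them were divided by estimation.

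Thin filament and Z-disc genes were higher for 22 of 41 tested genes and lower for 1 (median log2 fold change 0.66). Tropomodulin 1 (Tmod1), which caps thin filaments, had 134, 126 and 123 CPM with si mH2A1.1 against 46.5, 41.2 and 64.0 CPM with si mH2A1.2 (log2 fold change 1.34, SE 0.16, adjusted p = 0.00157). The troponins Tnnt1, Tnnt2, Tnnt3 and Tnnc2 were each higher by less (0.77, 0.69, 0.73 and 0.86). The skeletal actin Acta1, titin (Ttn) and nebulin (Neb) had log2 fold changes of -0.16, 0.24 and 0.13 and did not pass (adjusted p = 0.655, 0.524 and 0.676). Ankrd2, a stretch-responsive protein of slow muscle, was the lower one, with 18.6, 20.4 and 13.2 CPM with si mH2A1.1 against 35.6, 37.3 and 36.5 CPM with si mH2A1.2. The count of higher genes was 8 without si mH2A1.1 replicate 3 and 7 without si mH2A1.2 replicate 2. The WT mean lay between the knockdowns for 18 of the 22 higher genes and above si mH2A1.1 for 4.

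The genes of calcium handling and energy supply that were called in the fit of all 6 samples were higher with si mH2A1.1, and most tested members were not called. Parvalbumin (Pvalb), the calcium buffer of fast fibres, had 8.23, 8.71 and 10.2 CPM with si mH2A1.1 against 0.330, 0.471 and 0.377 CPM with si mH2A1.2 (log2 fold change 4.52, SE 0.23, adjusted p = 9.66e-05). The calcium pump Atp2a2 had 1612, 1779.7 and 2234 CPM with si mH2A1.1 against 652, 546 and 632 CPM with si mH2A1.2. Ckmt2, the creatine kinase of muscle mitochondria, had 43.6, 31.9 and 38.4 CPM with si mH2A1.1 against 0.852, 0.366 and 0.404 CPM with si mH2A1.2 (log2 fold change 6.14, SE 0.30, adjusted p = 9.66e-05), with WT samples at 1.58, 0.695 and 0.773 CPM, near si mH2A1.2. Cytosolic creatine kinase Ckm had 451, 443 and 487 CPM with si mH2A1.1 against 183, 188 and 259 CPM with si mH2A1.2 and the muscle phosphoglycerate mutase Pgam2 55.0, 43.3 and 42.1 CPM with si mH2A1.1 against 14.2, 16.5 and 22.9 CPM with si mH2A1.2. Of 25 genes of excitation-contraction coupling 9 were higher and none lower, of 30 genes of creatine, glycolysis and glycogen 6 and none, and of 14 postsynaptic genes 3 and none. Those 3 were the receptor subunits Chrnd, with 438, 419.7 and 387 CPM with si mH2A1.1 against 209.8, 179 and 223 CPM with si mH2A1.2, and Chrng (0.61, not called without si mH2A1.2 replicate 2), and the MuSK activator Dok7, with 82.1, 46.5 and 55.5 CPM with si mH2A1.1 against 28.3, 17.2 and 23.4 CPM with si mH2A1.2. In the coupling list the count was 5 without si mH2A1.1 replicate 3 and 4 without si mH2A1.2 replicate 2, and 1 gene was lower with DESeq2, with all 9 samples in 1 model and without si mH2A1.1 replicate 2. In the creatine and glycolysis list 5 genes were higher and 3 lower without si mH2A1.2 replicate 1, and 1 was lower with the replicate block or without a filter on low counts.

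Fusion genes did not part the knockdowns as a group. Of 33 tested, 6 were higher and 6 lower, shares of 18.2% in each direction against backgrounds of 10.8% and 8.99%. Myomaker (Mymk), the membrane protein that commits myoblasts to fuse, had a log2 fold change of -0.11 (adjusted p = 0.612), and its partner myomixer (Mymx) was lower (-0.75). Kirrel3 had 1.80, 3.76 and 3.55 CPM with si mH2A1.1 against 8.82, 9.60 and 9.54 CPM with si mH2A1.2 (log2 fold change -1.61, SE 0.27, adjusted p = 0.00613), and Ptgfr, the receptor for prostaglandin F2, was lower (-1.84, not called without si mH2A1.2 replicate 2). Higher were Ano5 with 64.8, 54.0 and 47.7 CPM with si mH2A1.1 against 29.1, 10.7 and 7.82 CPM with si mH2A1.2 (called in 3 of 6 fits without 1 library) and Elmo1 (0.95, called in 2 of 6 fits without 1 library). The count of higher genes was 2 without si mH2A1.1 replicate 1 or without si mH2A1.2 replicate 3. It was 0 without si mH2A1.1 replicate 3 or without si mH2A1.2 replicate 2. That of lower genes was 3 without si mH2A1.2 replicate 2.

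**Figure D4:**
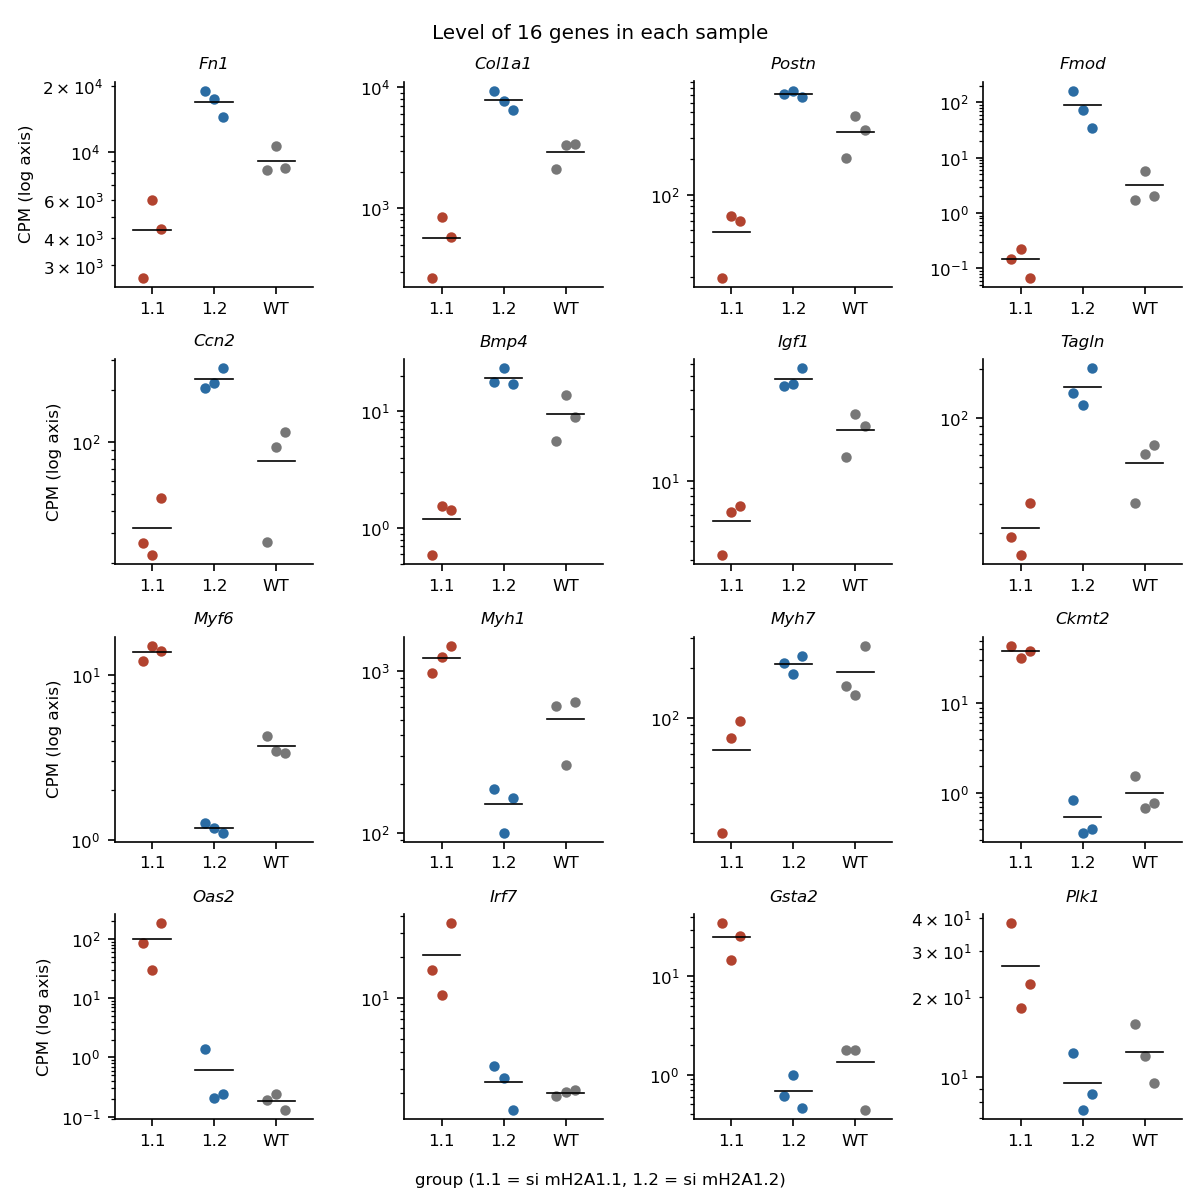
CPM on a log axis (y axis, which does not start at 0) of 16 genes in each si mH2A1.1 (red), si mH2A1.2 (blue) and WT (grey) sample (x axis). Points are replicates 1, 2 and 3 from left to right and the bar is the mean. The 16 were picked from called genes. No knockdown sample of one group reaches into the other, and for Oas2, Irf7 and Ckmt2 the WT samples lie by those of si mH2A1.2.

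The effector genes of the interferon response, by which cells answer viral and foreign nucleic acid, were nearly all higher with si mH2A1.1. Of 63 tested interferon-stimulated effector genes, 56 (88.9%) were higher with si mH2A1.1 and 1 lower, against 10.8% of all genes, at a median log2 fold change of 2.59. Oas2, a sensor of double-stranded RNA that activates RNase L, had 84.5, 29.3 and 183 CPM with si mH2A1.1 against 1.40, 0.209 and 0.243 CPM with si mH2A1.2 and WT samples at 0.187, 0.240 and 0.129 CPM (log2 fold change 7.34, SE 0.89, adjusted p = 0.00175). Oas1a had 19.1, 4.80 and 31.1 CPM with si mH2A1.1 against 0.412, 0.0523 and 0 CPM with si mH2A1.2, and Oas1g, a near copy of it, was at least 68.1-fold higher. Reads of 50 bp that fit both copies were divided by estimation. Usp18, which removes the ubiquitin-like Isg15 and limits the response, had 14.2, 4.85 and 28.0 CPM with si mH2A1.1 against 0.632, 0.105 and 0.108 CPM with si mH2A1.2 (log2 fold change 5.81, SE 0.83, adjusted p = 0.00343). Among members that the naming rule does not cover, Isg15, Ifit1, Ifit3, Mx1, Rsad2 and Bst2 were higher by 3.36, 3.91, 3.98, 3.29, 4.16 and 2.33 on the log2 scale. Ifitm2 was the only lower one (-0.70, called in 3 of 6 fits without 1 library), and 6 genes did not pass, among them Ifi47 (-0.43) and Isg20 (-0.64). The response differed between the si mH2A1.1 libraries. Replicate 3 was the highest of its group for 51 of the 56 genes and replicate 2 the lowest for 55. Even so, 38 to 58 genes were called in the fits without 1 library. The WT mean lay beyond si mH2A1.2 for 32 of the 56 and between the knockdowns for the other 24, and whether WT cells were exposed to an siRNA is not given, as above.

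Of 28 tested sensors and factors upstream, 9 were higher, 1 was lower and 18 were not called (median log2 fold change 0.34). The RNA helicase sensor Ifih1 (MDA5) had 16.5, 11.5 and 26.6 CPM with si mH2A1.1 against 4.64, 4.13 and 3.32 CPM with si mH2A1.2 (log2 fold change 2.18, SE 0.31, adjusted p = 0.00333), the endosomal RNA receptor Tlr3 had 8.87, 5.39 and 9.85 CPM with si mH2A1.1 against 3.19, 2.12 and 2.43 CPM with si mH2A1.2, and Irf7, the factor that amplifies interferon transcription, had 16.01, 10.6 and 35.5 CPM with si mH2A1.1 against 3.16, 2.62 and 1.51 CPM with si mH2A1.2. Stat2 and Irf9, which are part of the complex that interferon activates, were higher by 0.81 and 1.49. Dhx58 was higher too (2.17, called in 3 of 6 fits without 1 library). The receptor subunit and kinases given here did not pass, with Ifnar1 at -0.06, Jak1 at -0.09 and Tyk2 at -0.28 (adjusted p = 0.672, 0.662 and 0.143), and the interferon-gamma receptor Ifngr1 was lower (-0.40, called in 1 of 6 fits without 1 library). Without si mH2A1.2 replicate 1, 4 genes of this list were lower. Ifnb1, which encodes interferon beta, did not pass the filter on low counts.

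Of 26 genes of MHC class I and antigen processing, 9 were higher and 1 lower (34.6% and 3.85%, against 10.8% and 8.99% of all genes). The class I transactivator Nlrc5 had 29.8, 20.9 and 30.6 CPM with si mH2A1.1 against 5.52, 4.55 and 2.72 CPM with si mH2A1.2 (log2 fold change 2.67, SE 0.27, adjusted p = 0.00101), and H2-K1 had 234, 197 and 308 CPM with si mH2A1.1 against 121, 114 and 97.5 CPM with si mH2A1.2. H2-Q4 and H2-Q6, members of a family of near copies, were higher (1.65 and 1.03), and H2-M3 was lower (-0.75, called in 1 of 6 fits without 1 library). The count of higher genes was 15 without si mH2A1.1 replicate 2. Of 32 chemokines and cytokines 3 were higher and 7 lower (9.38% and 21.9%, against 10.8% and 8.99% of all genes), and 6 and 8 without si mH2A1.1 replicate 2. Cxcl10, an interferon target, was higher at a low level with 1.06, 0.866 and 2.28 CPM with si mH2A1.1 against 0.522, 0.445 and 0.297 CPM with si mH2A1.2 (called in 3 of 6 fits without 1 library), and Ccl11 (2.81) and Il15ra (1.86) were the other 2. Ccl9 had 1.23, 2.15 and 1.80 CPM with si mH2A1.1 against 7.20, 20.7 and 12.1 CPM with si mH2A1.2, the interleukin 33 receptor Il1rl1 had 0.197, 0.346 and 0.478 CPM with si mH2A1.1 against 2.56, 3.45 and 3.07 CPM with si mH2A1.2, and the RANKL decoy receptor Tnfrsf11b was lower (-2.87).

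The core of the interferon-stimulated response element, GAAANNGAA on either strand, is shown for Isg15 and Oas1a because the list moved together. It occurred in 31 of 48 RefSeq promoters (64.6%) of the 40 higher effector genes found there, and in 8.56% of all promoters. The list holds known interferon-stimulated genes, so such a share can follow from the choice of list alone. Members that were not called were not counted. Matches overlap in these windows, and the capitals cover all of them.
Isg15, chr4:156200871-156200900, minus strand: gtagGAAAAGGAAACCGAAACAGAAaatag
Oas1a, chr5:120907526-120907555, minus strand: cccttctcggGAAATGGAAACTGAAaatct

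Glutathione and antioxidant genes, many of them targets of the factor NRF2, were higher for 14 of 36 tested genes and lower for none (median log2 fold change 0.46). The largest differences were in the alpha class of glutathione S-transferases, which detoxify lipid peroxidation products. Gsta2 had 34.7, 14.8 and 25.9 CPM with si mH2A1.1 against 0.605, 0.994 and 0.458 CPM with si mH2A1.2 (log2 fold change 5.19, SE 0.40, adjusted p = 0.000363), Gsta1 had 23.9, 8.21 and 21.1 CPM with si mH2A1.1 against 0.275, 0.916 and 0.458 CPM with si mH2A1.2, and Gsta3 had 3.50, 1.66 and 2.28 CPM with si mH2A1.1 against 0.137, 0.183 and 0.0809 CPM with si mH2A1.2. Gsta1 and Gsta2 are near copies whose reads may be shared. Srxn1, Txnrd1, Prdx1 and Gclc, which repair and supply thiols, were higher by less (1.06, 0.76, 0.72 and 0.55). Nfe2l2, which encodes NRF2, and Nqo1 and Hmox1 had log2 fold changes of -0.02, 0.47 and 0.66 and did not pass (adjusted p = 0.921, 0.229 and 0.169). The count was 8 without si mH2A1.1 replicate 3, without si mH2A1.2 replicate 2 or without si mH2A1.2 replicate 3. The core TGACNNNGC of the antioxidant response element occurred in 6 of 20 promoters of the 12 higher genes found in RefSeq, and in 12.4% of all promoters. The list holds known targets of NRF2, so this share can follow from the choice of list alone.

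Genes of mitosis and DNA replication, most of which are silent in fused myotubes, were higher with si mH2A1.1. Of 40 tested genes of mitosis and the spindle, 38 (95%) were higher and none lower, at a median log2 fold change of 1.15, and of 43 genes of DNA replication 26 were higher and none lower (median 0.92). The kinase Plk1 had 38.1, 18.3 and 22.4 CPM with si mH2A1.1 against 12.3, 7.48 and 8.57 CPM with si mH2A1.2 and WT samples at 15.8, 12.0 and 9.44 CPM (log2 fold change 1.47, SE 0.29, adjusted p = 0.0124, not called without si mH2A1.2 replicate 2). Birc5 (survivin) had 48.6, 22.7 and 30.3 CPM with si mH2A1.1 against 15.1, 10.8 and 10.5 CPM with si mH2A1.2, and Foxm1, the factor that drives mitotic genes, had 69.1, 33.0 and 44.9 CPM with si mH2A1.1 against 22.8, 15.3 and 16.3 CPM with si mH2A1.2. Mki67, Top2a, Ccnb1 and Cdk1 were higher by 1.15, 1.17, 0.95 and 1.30. In replication, Uhrf1, which maintains DNA methylation, had 77.1, 29.8 and 54.7 CPM with si mH2A1.1 against 14.9, 12.4 and 16.04 CPM with si mH2A1.2 (log2 fold change 1.90, SE 0.30, adjusted p = 0.00529), Mcm5 had 48.9, 13.0 and 30.7 CPM with si mH2A1.1 against 10.6, 4.95 and 10.5 CPM with si mH2A1.2 (called in 1 of 6 fits without 1 library), and Cdc6 had 12.3, 3.41 and 9.26 CPM with si mH2A1.1 against 2.17, 1.39 and 2.62 CPM with si mH2A1.2 (called in 3 of 6 fits without 1 library). Replicate 1 of si mH2A1.1 was the highest of its group for all 38 mitotic and all 26 replication genes, and replicate 2 was the lowest for 37 and 25. WT replicate 1 reached the level of si mH2A1.1 replicate 2, with list medians of 0.22 and 0.15 above the mean of the 9 samples for mitosis. Without single libraries these counts fell. For mitosis they were 23 without si mH2A1.1 replicate 1, 19 without si mH2A1.1 replicate 3, 8 without si mH2A1.2 replicate 2 and 18 without si mH2A1.2 replicate 3. For replication they were 8, 2, 1 and 14 in the same order, and 16 without si mH2A1.2 replicate 1.

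The cell cycle homology region, TTTGAA on either strand, is shown for Cdk1 and Ube2c, which were higher by 1.30 and 1.36 on the log2 scale. It occurred in 25 of 33 RefSeq promoters (75.8%) of the 31 higher mitotic genes found there, and in 17.9% of all promoters. The list holds known mitotic genes, so this share too can follow from the choice of list alone.
Cdk1, chr10:69352913-69352942, minus strand: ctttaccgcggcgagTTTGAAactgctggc
Ube2c, chr2:164769888-164769917, plus strand: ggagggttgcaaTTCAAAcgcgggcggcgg

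Genes of cell cycle exit and p53 targets were mixed, with 3 of 32 higher and 8 lower (9.38% and 25%, against 10.8% and 8.99% of all genes). The cyclin-dependent kinase inhibitor Cdkn1c (p57), active in differentiating muscle, was higher at 38.9, 19.2 and 8.24 CPM with si mH2A1.1 against 4.67, 2.96 and 1.54 CPM with si mH2A1.2 (log2 fold change 2.85, SE 0.58, adjusted p = 0.0131, not called without si mH2A1.2 replicate 2), as was the G1 cyclin Ccnd1 with 152, 132 and 164 CPM with si mH2A1.1 against 84.4, 100.2 and 75.03 CPM with si mH2A1.2. Cdkn1a (p21), which holds myotubes out of the cycle, had a log2 fold change of -0.27 and did not pass (adjusted p = 0.293). The p53 targets Zmat3, Fas, Bbc3 and Sesn2 were lower (-0.82, -0.93, -0.64 and -1.16, Sesn2 called in 1 of 6 fits without 1 library). The count of lower genes was 3 without si mH2A1.1 replicate 1, without si mH2A1.1 replicate 3 or without si mH2A1.2 replicate 3, and 2 without si mH2A1.2 replicate 2, where 1 higher gene was left. Of 12 genes of variant and other histones, H2afy included, Cenpa (0.81, called in 2 of 6 fits without 1 library) and H2afv (0.49, called in 1 of 6 fits without 1 library) were higher. The clustered histone gene Hist1h2bc (0.75, not called without si mH2A1.1 replicate 3 or without si mH2A1.2 replicate 2) was higher too, and H2afy alone was lower.

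**Figure D5:**
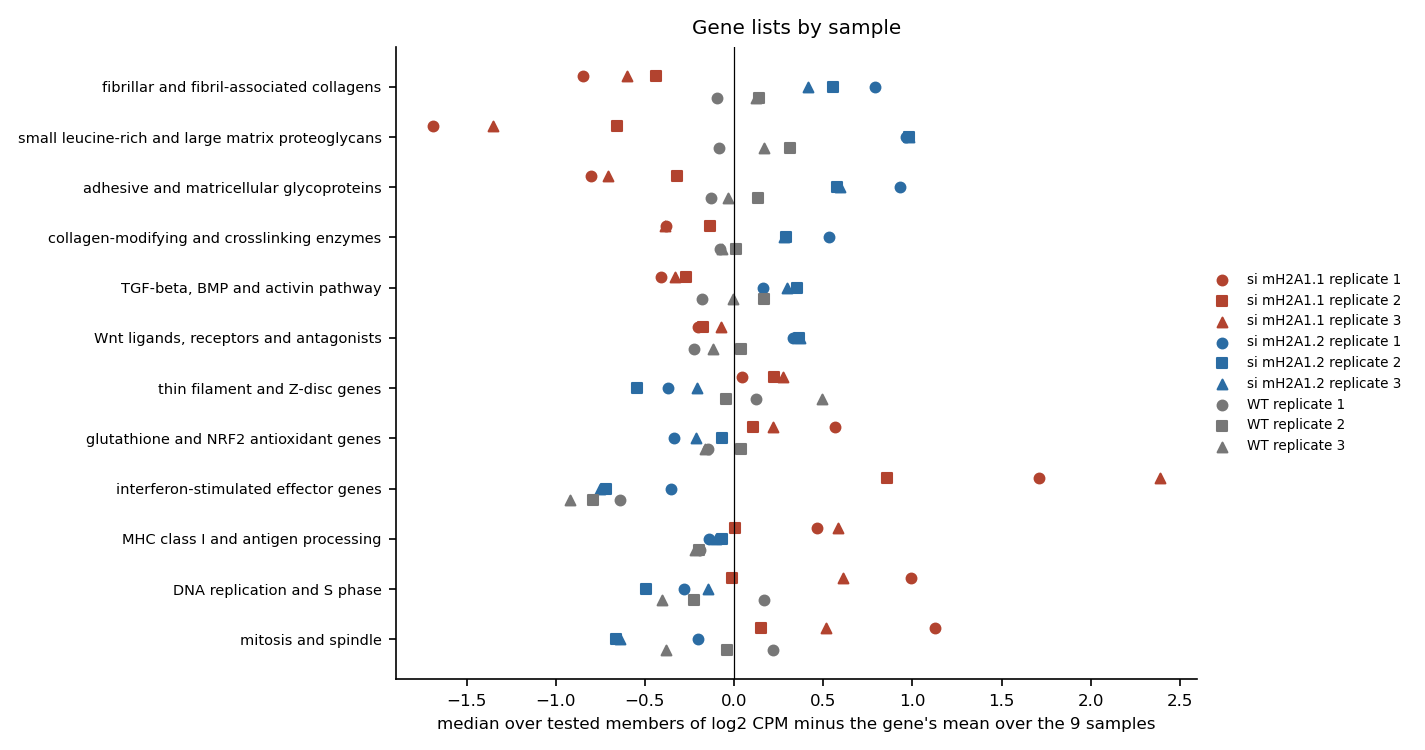
For 12 lists (y axis), the median over tested members of log2 CPM minus the gene's mean over the 9 samples (x axis), 1 symbol a sample, with circles, squares and triangles for replicates 1, 2 and 3 and red, blue and grey for si mH2A1.1, si mH2A1.2 and WT. The knockdown groups do not overlap in any of the 12 lists. For interferon-stimulated genes si mH2A1.1 spreads from 0.86 to 2.39, and for mitosis from 0.15 to 1.13.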

How the data were processed

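Gene expression was measured by RNA-seq in 9 samples, of which the 6 knockdown samples entered the tests. The authors quantified single reads of 50 bp on mouse transcripts with Salmon, summed transcripts to genes with tximport and deposited estimated counts per gene (build mm10, annotation release not given in the sources used here). Estimated counts divide reads shared by near copies, and strand is not given in the sources used here, so overlapping antisense genes cannot be told apart. A table of normalized counts was not used here. Symbols were matched to GENCODE release 21 (52762 of 52780 genes).

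The estimated counts were tested as deposited with edgeR 4.0.16 (R 4.3.3), TMM scaling, filterByExpr and the legacy quasi-likelihood fit without a block. P-values were adjusted with the Benjamini-Hochberg method over 18888 genes, and an adjusted p of 0.05 was a call, as in the study's methods. The scripts were tested on simulated data. CPM used TMM over all 9 samples. An exact permutation test of 3 against 3 cannot go below p = 0.1, so none was used. Totals are given in the report. Alternatives were DESeq2 1.42.0, limma 3.58.1 (voom), other scalings, filters and each library left out.

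Genes were named by rule: H2afy and H2afy2, the 8 largest log2 fold changes in each direction among called genes of at least 1 CPM whose groups did not overlap, the 6 largest CPM differences, up to 4 called members of each of 32 lists by fold change, and all called members where 5 or fewer were called in a direction. Other genes were chosen after their values were seen, and fits without 1 library are not given for them. The contrast, lists and rule were chosen with earlier results of these data known. Some members of the lists are counted but not reported by name here.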

Additional observations from a re-analysis of the deposited data

How the results depend on the processing

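The genes named by rule kept their direction under every alternative that tested them, and no gene was called in opposite directions. The counts of genes higher and lower with si mH2A1.1 (2033 and 1698) ranged from 750 to 2148 and from 644 to 1771 in edgeR fits that left out 1 library, and were 502 and 447 under the stricter rule of the study's plots (adjusted p limit 0.01, log2 size limit 0.8). The fewest calls were left without si mH2A1.2 replicate 2. The cause was not tested. The other alternatives kept both counts within 1.5 times, from 1821 to 2375 and from 1406 to 2047. Library totals without TMM gave 2369 higher and 1406 lower genes, 62.8% higher against 54.5%. The H2afy difference between the knockdowns (log2 -0.46) was -0.40 without TMM, no longer past the threshold (adjusted p = 0.0613), and ran from -0.58 to -0.39 without 1 library (adjusted p 0.0169 to 0.123). DNA replication held 18 higher genes with voom in place of 26, and the filter of 10 counts left 43 higher interferon effector genes of 49 tested in place of 56 of 63. Lists with calls on both sides could turn. Notch genes (6 higher, 4 lower) were 4 and 5 without si mH2A1.1 replicate 2 and 2 and 3 without si mH2A1.2 replicate 3, and ER folding and stress genes (1 and 4) were 2 and 1 without si mH2A1.2 replicate 1. The median log2 fold change over all genes (-0.01) was 0.05 without TMM. List medians near 0 changed sign under some alternatives for integrins, myogenic regulators, fusion, creatine and glycolysis (0.08, and -0.02 without si mH2A1.2 replicate 1), cholesterol, chemokines (-0.02, and 0.15 without that library) and Notch.

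No label says that a replicate number marks a shared batch or day, although the sample codes run in consecutive sets by replicate number. The deviations of same-numbered knockdown samples correlated at 0.0984, 0.109 and 0.129 across genes and others at -0.0999 to -0.0214, each sample best with its own number, a hint from the data and not the design. With the replicate block 2059 genes were higher and 1809 lower, of which 1807 and 1531 were shared with the fit without it.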
